A study of Mus musculus with 9 samples.

Results

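The levels of 10 guidance genes, of the netrin, Slit and reelin systems, were followed through aggregates of mouse mammary epithelium. The genes were chosen with earlier results of these data known and were taken by gene name from the deposited count table. The 10 genes are the netrin ligands Ntn1 and Ntn4, the netrin receptors Neo1, Unc5b and Unc5c, the Slit ligands Slit2 and Slit3, the Slit receptors Robo1 and Robo2, and reelin, Reln. All 10 were found among the 54456 gene names of the table, and all 10 passed the filter on low counts that left 18051 genes for testing. The aggregates were made from wild-type mammary epithelial cells sorted by flow cytometry into luminal cells, which line the duct, and basal (myoepithelial) cells, which surround them. Mixed aggregates held both kinds, 50% of each, luminal aggregates held luminal cells alone, and basal aggregates held basal cells alone, with 3 libraries per kind. Aggregates of 1 cell kind are called pure below. The study asked what each kind contributes to collective migration. All aggregates had been placed in 80% Matrigel near a bead soaked in FGF10 at 100 µg/ml (heparin sulfate, 100 to 150 µm across) and had migrated for 56 h by the treatment label and 55 h by the titles. No group without FGF10 is among the samples, and the labels give neither the age of the mice nor whether libraries of a kind came from separate animals or cultures, so p-values measure the spread between these libraries, which may be technical.

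Netrins are secreted proteins related to laminins. Netrin-1 binds neogenin and the UNC5 receptors and can attract or repel a migrating cell, while netrin-4 binds laminin in basement membranes. Slit proteins are large secreted ligands that bind Robo receptors on the cell surface, mostly as repellents, and reelin is a secreted glycoprotein that binds the lipoprotein receptors encoded by Lrp8 and Vldlr and acts through the adaptor Dab1 and Src family kinases. All were first described in the nervous system. In the mammary gland netrin-1 with neogenin and Slit2 with Robo1 are known for holding the outer and inner cell layers together, and reelin has been described in the myoepithelium and stroma, with its adaptor in luminal cells.

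The libraries held 15585324 to 19164405 counts, and 3 counts corresponded to 0.152 to 0.187 CPM (counts per 1000000 after scaling between libraries). This is the level that a count of 0 still allows, for counting error only. Basal identity followed the labels. The 10 basal markers summed to 6493 to 7726 CPM in mixed, 1440 to 2856 CPM in luminal and 10297 to 11787 CPM in basal aggregates, and all 10 fell in luminal against basal aggregates. The 10 luminal markers summed to 8838 to 10371 CPM in mixed, 6977 to 10037 CPM in luminal and 2762 to 3053 CPM in basal aggregates, and 9 of them rose in luminal against basal aggregates. The mixed sum owed much to Krt19, at 4537 CPM in mixed against 1336 CPM in luminal aggregates. In mixed against luminal aggregates 2 of the 10 were higher and 4 lower, where 15.2% of all tested genes were higher and 14.2% lower. The 6 fibroblast markers summed to 15.9 to 38.0 CPM in mixed, 6.53 to 10.4 CPM in luminal and 21.5 to 29.1 CPM in basal aggregates. The code that opens the column names of the count table divides the libraries in a way that crosses the groups. Mixed 1, 2 and 3 share a code with basal 2, basal 1 and 3 share one with luminal 1, and luminal 2 and 3 share another. With the code as a term, luminal is compared with basal through luminal 1, and mixed with basal through basal 2.

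The netrin ligands were higher where luminal cells were present, and Reln, Robo2, Robo1 and Slit2 were higher in basal than in luminal aggregates. Mixed aggregates stood with luminal ones for Ntn1, with basal ones for Slit2, and far below basal ones for Reln. No difference of Neo1 passed the test.

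**Figure D1:**
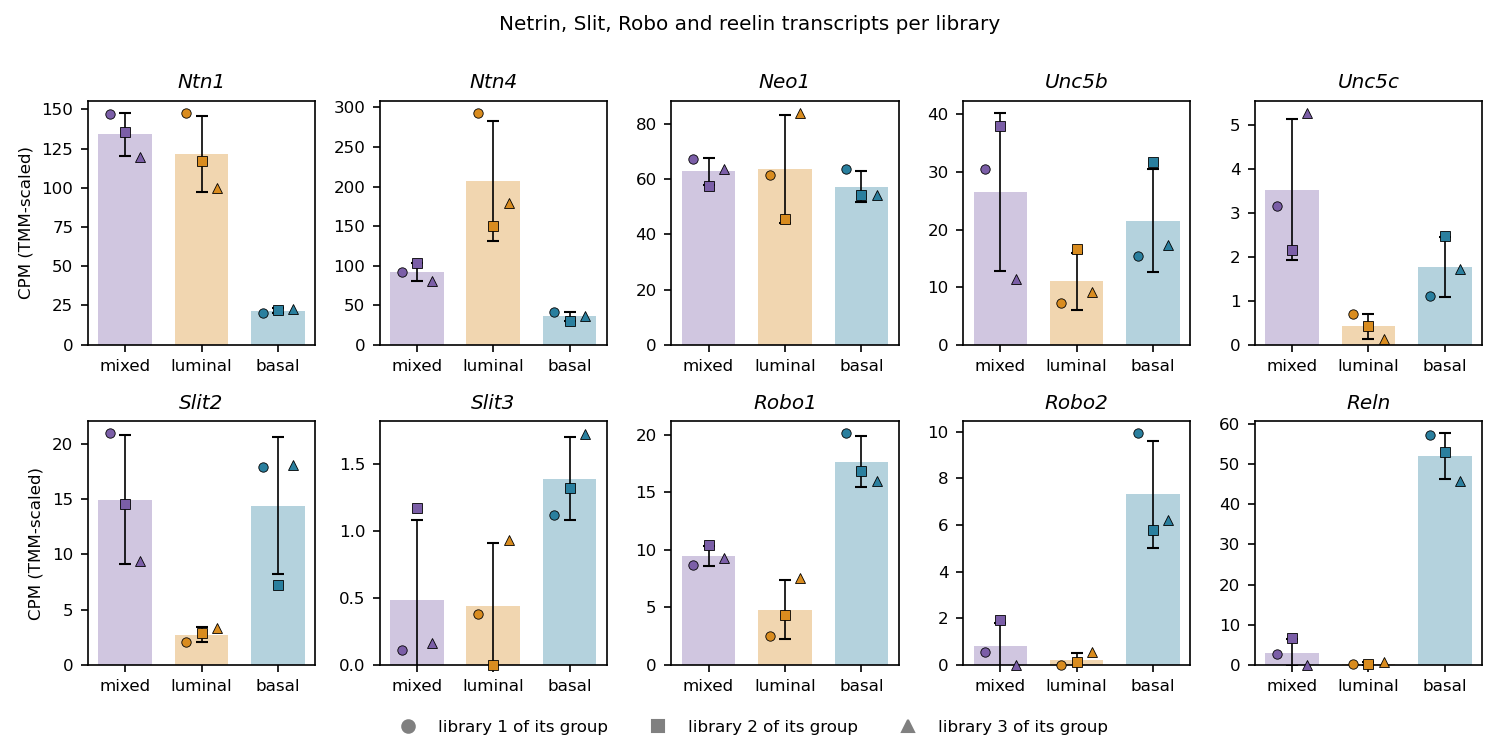
CPM of each of the 10 genes (linear axis from 0, a scale of its own for each gene) in mixed, luminal and basal aggregates. Points are libraries, bars are means and lines are SD over 3 libraries. The 3 basal libraries of Reln lie between 45.9 and 57.2 CPM, and all mixed and luminal libraries lie at 6.58 CPM or lower.

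The promoter windows of Reln, Robo2, Slit2 and Ntn4 are shown because Reln and Robo2 were both scarce in luminal and mixed aggregates, Slit2 was scarce in luminal ones alone, and Ntn4 was highest there. The sequences are RefSeq's, on build GRCm38.p6, run 5′ to 3′ on the strand of the gene and cover 250 bases before to 50 after an annotated start. Capitals mark every GC box (GGGCGG), ETS core (CGGAAG) and TATA box (TATAAA), searched on both strands.
Reln (chr5:22344656-22344955, minus strand): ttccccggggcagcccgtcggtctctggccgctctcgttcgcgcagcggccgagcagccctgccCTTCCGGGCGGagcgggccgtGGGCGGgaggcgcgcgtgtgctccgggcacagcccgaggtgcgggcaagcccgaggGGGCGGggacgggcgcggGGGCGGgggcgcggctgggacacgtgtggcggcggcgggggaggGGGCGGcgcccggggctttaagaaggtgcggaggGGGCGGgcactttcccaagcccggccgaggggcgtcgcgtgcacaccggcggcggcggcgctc
Robo2 (chr16:75447244-75447543, minus strand): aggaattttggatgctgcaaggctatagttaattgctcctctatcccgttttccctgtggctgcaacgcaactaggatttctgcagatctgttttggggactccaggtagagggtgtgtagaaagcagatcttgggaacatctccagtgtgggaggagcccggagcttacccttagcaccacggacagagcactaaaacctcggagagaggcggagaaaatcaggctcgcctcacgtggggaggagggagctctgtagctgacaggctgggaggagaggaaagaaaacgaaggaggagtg
Slit2 (chr5:47982905-47983204, plus strand): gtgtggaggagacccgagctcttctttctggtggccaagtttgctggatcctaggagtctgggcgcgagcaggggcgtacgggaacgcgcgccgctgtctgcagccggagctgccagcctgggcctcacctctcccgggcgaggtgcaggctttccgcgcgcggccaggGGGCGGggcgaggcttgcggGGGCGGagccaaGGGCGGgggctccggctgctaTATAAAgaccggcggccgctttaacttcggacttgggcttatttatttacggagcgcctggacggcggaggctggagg
Ntn4 (chr10:93640799-93641098, plus strand): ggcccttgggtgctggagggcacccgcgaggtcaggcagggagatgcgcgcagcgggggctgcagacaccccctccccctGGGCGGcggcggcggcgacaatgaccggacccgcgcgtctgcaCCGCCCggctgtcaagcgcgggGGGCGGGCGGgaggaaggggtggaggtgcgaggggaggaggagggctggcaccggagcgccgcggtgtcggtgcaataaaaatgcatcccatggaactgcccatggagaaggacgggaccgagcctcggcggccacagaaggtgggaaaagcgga
The Reln window held 6 GC boxes and 1 ETS core, which shares a base with a GC box, and was 80.7% G or C with 47 CG pairs. The Robo2 window, the farthest upstream of 3 annotated ones, held none of these motifs and was 53.3% G or C with 9 CG pairs. The 2 windows of Robo2 not printed held none either, and were 45% and 65% G or C with 5 and 17 CG pairs. The windows and the counted genes are on different builds, and positions were not converted. The counted Robo2 has its 5′ end at 74208713 on mm39. Nearest to that number is the third window, at 74411776 to 74412075 on GRCm38 (65% G or C), and the printed window is the farthest from it. Which start is used in these cells was not determined. Slit2 held 3 GC boxes and a TATA box, and Ntn4 held 4 GC boxes, of which 1 pair overlaps. A GC box occurs in 35.7%, an ETS core in 16.9% and a TATA box in 13.6% of the 32851 windows of this length. AP-1 sites (TGACTCA, in 5.2% of windows) and the E-box CACCTG (in 20.2%) were searched in the same way and occurred in none of these 4 windows. Windows were found for 9 of the 10 genes. Across all windows the median was 52.7% G or C and 7 CG pairs. The printed Robo2 window was near these values, the second Robo2 window was below and the third above them, and the Reln window was well above them.

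Ntn1, netrin-1 (mm39 chromosome 11, 68100190 to 68291649, minus strand), had 147, 136 and 119 CPM in mixed libraries, 148, 117 and 99.7 CPM in luminal libraries and 20.1, 22.2 and 22.8 CPM in basal libraries. Every mixed and luminal library stood above every basal one, and mixed and luminal libraries overlapped. In bulk aggregates more cells of a type and more RNA per cell cannot be told apart, here and for all other genes. The log2 difference was 2.49 ± 0.19 for luminal against basal (SE; edgeR quasi-likelihood test, adjusted p = 2.4e-06), a 5.60-fold rise. All adjusted p in the following come from this test unless another is named. Mixed against basal aggregates gave a log2 difference of 2.63 ± 0.19 (adjusted p = 1.3e-05). Between mixed and luminal aggregates the difference was 0.14 ± 0.18 and was not called (adjusted p = 0.57). Both calls held with the library code as a term, at 2.78 for luminal and 2.60 for mixed against basal.

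Ntn4, netrin-4 (mm39 chromosome 10, 93476543 to 93583069, plus strand), was present at 91.4, 103 and 80.0 CPM in mixed libraries, 294, 150 and 179 CPM in luminal libraries and 41.3, 30.2 and 36.3 CPM in basal libraries. None of the 3 kinds overlapped another, and the order was luminal, mixed, basal. The rise in luminal against basal aggregates was 2.53 ± 0.26 on the log2 scale (adjusted p = 2.0e-05), and the rise in mixed against basal aggregates was 1.35 ± 0.25 (adjusted p = 0.0052). Mixed aggregates were lower than luminal ones by a log2 difference of -1.18 ± 0.24 (adjusted p = 0.0051). The last call ended with the library code as a term (-1.32, adjusted p = 0.059).

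Of the netrin receptors, Neo1, neogenin (mm39 chromosome 9, 58781970 to 58943724, minus strand), had 67.3, 57.7 and 63.7 CPM in mixed libraries, 61.6, 45.4 and 84.2 CPM in luminal libraries and 63.7, 54.1 and 54.3 CPM in basal libraries. The ranges of the 3 kinds overlapped. Its log2 differences were 0.15 ± 0.21 for luminal against basal, 0.13 ± 0.21 for mixed against basal and -0.02 ± 0.21 for mixed against luminal, with adjusted p of 0.66, 0.72 and 0.96.

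Unc5b, a netrin receptor best known from blood vessels (mm39 chromosome 10, 60598372 to 60667360, minus strand), varied more within kinds than Neo1. It was measured at 30.4, 38.0 and 11.3 CPM in mixed libraries, 7.23, 16.7 and 9.09 CPM in luminal libraries and 15.4, 31.8 and 17.4 CPM in basal libraries. Mixed 3 lay within the luminal range, luminal 2 lay within the basal range, and no difference was called. The 6 endothelial markers summed to 3.26 to 5.77 CPM in mixed, 0.178 to 2.43 CPM in luminal and 0.661 to 2.49 CPM in basal aggregates, and their part in the Unc5b levels was not tested. The difference nearest to the threshold was that of mixed against luminal, at a log2 difference of 1.27 ± 0.46 (adjusted p = 0.058). That difference passed without basal 2 (1.27, adjusted p = 0.041), without luminal 2 (1.69, adjusted p = 0.036) or without mixed 3 (1.63, adjusted p = 0.019), with DESeq2 (adjusted p = 0.024) and without the filter on low counts (adjusted p = 0.00056). It did not pass in 12 of 19 alternatives, among them the library code as a term (0.92 ± 0.87, adjusted p = 0.79). Luminal against basal, at -0.97 ± 0.46 (adjusted p = 0.15), passed without that filter (-0.93, adjusted p = 0.015).

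Unc5c, a second receptor of the same family (mm39 chromosome 3, 141170977 to 141540685, plus strand), was rare. It had 55, 35 and 97 counts in mixed libraries, 13, 7 and 2 counts in luminal libraries and 22, 45 and 30 counts in basal libraries, and averaged 3.53 ± 1.60 CPM in mixed, 0.414 ± 0.289 CPM in luminal and 1.77 ± 0.683 CPM in basal aggregates (SD, n = 3 each). Every mixed and basal library was above every luminal one. Mixed exceeded luminal aggregates by 3.06 ± 0.77 on the log2 scale (adjusted p = 0.014). Luminal against basal, at -2.07 ± 0.75, was not called (adjusted p = 0.062) and was -1.01 with the library code as a term. It passed without mixed 3 (adjusted p = 0.049), under total library size scaling (adjusted p = 0.049) and with DESeq2 (adjusted p = 0.021). The call of mixed against luminal ended without luminal 3 (2.63, adjusted p = 0.053) and with the library code as a term (1.52, adjusted p = 0.80), and without luminal 1 that difference was 3.66.

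Slit2, a Slit ligand (mm39 chromosome 5, 48140480 to 48465075, plus strand), stood at 21.0, 14.5 and 9.37 CPM in mixed libraries, 2.05, 2.91 and 3.30 CPM in luminal libraries and 17.9, 7.27 and 18.1 CPM in basal libraries. Luminal libraries were below all others, while mixed and basal libraries overlapped, with basal 2 the lowest of these 6. Slit2 fell by 2.39 ± 0.44 on the log2 scale in luminal against basal aggregates (adjusted p = 0.0016) and was higher by 2.44 ± 0.44 in mixed against luminal aggregates (adjusted p = 0.0024). With the library code as a term these differences were -3.13 and 4.17 and both passed. Mixed against basal was 0.05 ± 0.41 (adjusted p = 0.95), a value whose sign turned under total library size scaling (-0.15), without basal 2 (-0.28) and without mixed 1 (-0.28), and which was 1.04 ± 0.50 with the library code as a term (adjusted p = 0.31).

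Slit3, another member of the Slit family (mm39 chromosome 11, 35012051 to 35599334, plus strand), was near the counting limit in part of the libraries, with 2, 19 and 3 counts in mixed, 7, 0 and 15 counts in luminal and 22, 24 and 30 counts in basal libraries. Its highest level was 1.72 CPM in basal 3. Basal libraries were all above luminal ones, but no difference was called, and luminal against basal was -1.66 ± 1.25 on the log2 scale (adjusted p = 0.38, and -2.82 without luminal 3). Mixed against basal was -1.52 ± 1.24 (adjusted p = 0.45), and -3.27 without mixed 2. Slit ligands are also made by fibroblasts, whose 6 markers had the summed levels given above. Of the 5 that were tested, 2 were lower in luminal than in basal and 2 higher in mixed than in luminal aggregates. Among all tested genes the shares called in these directions were 14.4% and 15.2%. Col1a2, a fibroblast collagen gene, had 2.75 to 9.86 CPM in mixed libraries, 0 counts in all 3 luminal libraries and 4.68 to 5.73 CPM in basal libraries. Col1a1, Pdgfra and Dcn were present in luminal libraries, at 1.31 to 4.42, 1.31 to 4.05 and 1.89 to 5.10 CPM. None of them was called in either comparison. Whether fibroblast RNA contributed to Slit2 or Slit3 was not tested.

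Robo1, a Slit receptor (mm39 chromosome 16, 72105194 to 72842983, plus strand), had 8.70, 10.5 and 9.26 CPM in mixed libraries, 2.48, 4.33 and 7.59 CPM in luminal libraries and 20.2, 16.9 and 16.0 CPM in basal libraries. The 3 kinds did not overlap, with mixed libraries between the pure ones. Robo1 fell by 1.88 ± 0.38 on the log2 scale in luminal against basal aggregates (adjusted p = 0.0030), and the difference was -2.86 with the library code as a term. Mixed against basal was -0.90 ± 0.37 (adjusted p = 0.13) and mixed against luminal was 0.98 ± 0.37 (adjusted p = 0.068, and 0.020 without luminal 3), so neither was called. With the library code as a term the second was 2.03 (adjusted p = 0.20). With DESeq2 and with limma-voom mixed against luminal passed, at adjusted p of 0.045 and 0.039. Mixed against basal passed with limma-voom (-0.90, adjusted p = 0.0498).

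Robo2, a second Slit receptor on the same chromosome (mm39 chromosome 16, 73688727 to 74208713, minus strand), had 0.572, 1.91 and 0 CPM in mixed libraries, 0, 0.119 and 0.560 CPM in luminal libraries and 9.94, 5.79 and 6.21 CPM in basal libraries. Its counts in luminal libraries were 0, 2 and 9. Every basal library exceeded every mixed and luminal one, and mixed and luminal libraries overlapped. The luminal against basal difference was -5.00 ± 1.33 (adjusted p = 0.015). This call ended without luminal 2 (-4.71, adjusted p = 0.064) and with the library code as a term (-10.16 ± 3.16, adjusted p = 0.067). With the code, luminal is compared through luminal 1, which had 0 counts, so the size of that value is poorly determined. The difference was -4.40 without luminal 1 and -6.84 without luminal 3. Mixed against basal was -3.15 ± 1.18 and did not pass (adjusted p = 0.0995). It did pass with DESeq2 (-3.19, adjusted p = 0.026), limma-voom (-4.58, adjusted p = 0.020) and without the filter on low counts (-3.16, adjusted p = 0.0011). Without mixed 2 that difference was -4.67. Mixed against luminal was 1.86 ± 1.26 (adjusted p = 0.29), a value that ran between 0.34 without mixed 2 and 3.68 without luminal 3. It was 7.35 ± 3.64 with the library code as a term, poorly determined for the same reason, and never passed.

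Reln, reelin (mm39 chromosome 5, 22089452 to 22549700, minus strand), had 2.63, 6.58 and 0 CPM in mixed libraries, 0.162, 0.119 and 0.747 CPM in luminal libraries and 57.2, 53.0 and 45.9 CPM in basal libraries. The corresponding counts were 46, 107 and 0 in mixed, 3, 2 and 12 in luminal and 1127, 962 and 798 in basal libraries. All basal libraries stood far above all others, while mixed and luminal libraries overlapped, with no Reln count in mixed 3. Mixed 3 held no Robo2 count either. The 10 basal markers summed to 6493 CPM or more in every mixed library. A large part of the sum was Krt14, at 2834 CPM in mixed 3, which also averaged 2114 CPM in luminal aggregates. Krt5 and Acta2 had 1129 and 1775 CPM in mixed 3, against luminal means of 17.7 and 44.6 CPM. In mixed against luminal aggregates 8 of the 10 basal markers were higher, where 15.2% of all tested genes were. The 2 not called were Krt14 and Oxtr. Basal 2, which shares its library code with the mixed libraries, had 53.0 CPM of Reln. The part of basal cell number or of the library code in the low mixed levels was not tested.

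Luminal aggregates had 152-fold less Reln than basal ones, a log2 difference of -7.25 ± 1.12 (adjusted p = 0.00052), and -8.46 without luminal 3. Mixed aggregates had 17.0-fold less than basal ones, at -4.09 ± 0.90 (adjusted p = 0.013). The mixed call ended without mixed 1 (-4.01, adjusted p = 0.051) and with the library code as a term (-4.12, adjusted p = 0.066), while without mixed 2 the difference was -5.33 and without basal 2 and mixed 3 it was -3.50. Mixed against luminal passed narrowly at 3.16 ± 1.09 (adjusted p = 0.048) and did not pass in 15 of 19 alternatives, among them the removal of any 1 library other than mixed 3.

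The 10 genes were chosen with earlier results of these data known, so the following counts and medians are a description only. Counted together, 6 of the 10 genes were called between luminal and basal aggregates, 2 higher and 4 lower, where 27.1% of all tested genes were called (12.8% higher and 14.4% lower). Their median log2 difference was -1.77, against -0.02 over all tested genes. In 8 of 10 the luminal and basal libraries did not overlap, which held for 46.6% of all tested genes. For mixed against basal, 3 of 10 were called, 2 higher and 1 lower, against 13.7% of all tested genes (6.39% higher and 7.33% lower). The median of the 10 was 0.09, against -0.07 over all tested genes, and 5 of 10 did not overlap, against 33.1%. For mixed against luminal, 4 of 10 were called, 3 higher and 1 lower, against 29.4% of all tested genes (15.2% higher and 14.2% lower). The median was 1.13, against -0.05, and 4 of 10 did not overlap, against 51.1%. Mixed levels outside both pure kinds were called by edgeR for none of the 10 (0.0886% of all tested genes, 16 in number). None of the 10 had an unadjusted p under 0.05 in that test, and none was called with DESeq2 or limma-voom. The count of the 10 at an unadjusted p under 0.05 was 7 for luminal against basal, 5 for mixed against basal and 6 for mixed against luminal. Over all tested genes 2304 were higher and 2595 lower in luminal against basal aggregates, and 1153 were higher and 1324 lower in mixed against basal ones. Under total library size scaling, which moved the median log2 difference of all genes to -0.17 and -0.22, these counts became 1750 and 3249, and 951 and 1882. Background counts of the mixed comparisons depended on single libraries. For mixed against basal, 2477 genes were called, against 5120 without basal 2, 1176 without basal 1 and 963 without basal 3. For mixed against luminal, 5309 were called, against 3243 without luminal 1 and 2967 without luminal 3.

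**Figure D2:**
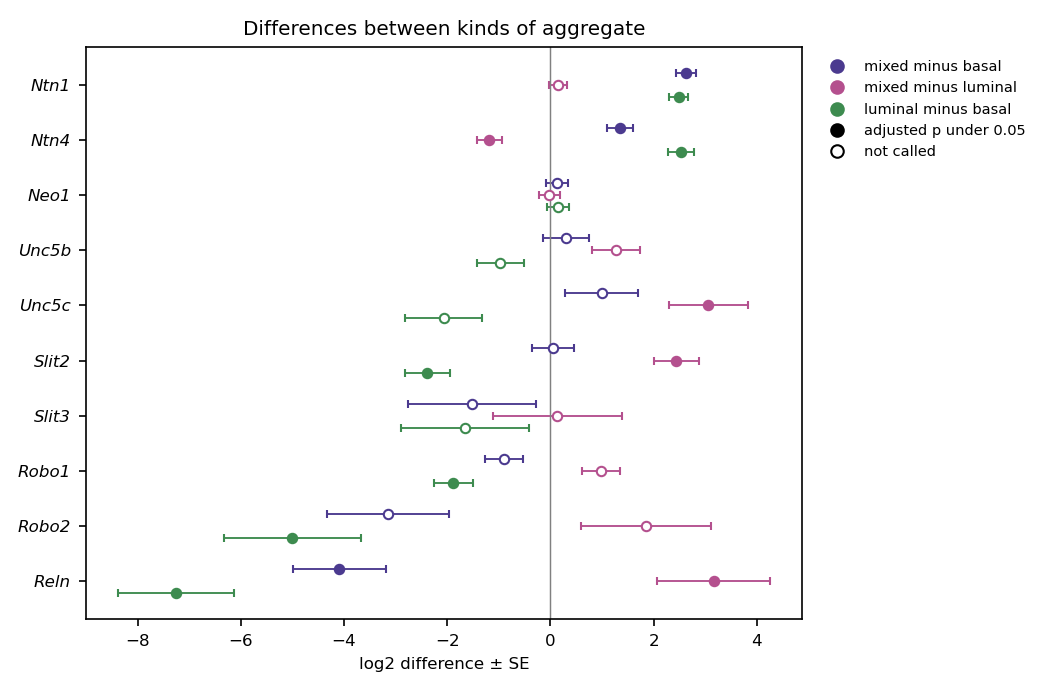
Log2 differences with SE for mixed minus basal, mixed minus luminal and luminal minus basal aggregates (x axis), by gene. Filled points passed an adjusted p under 0.05. Ntn1 and Ntn4 lie right of 0 against basal in both comparisons, and Reln, Robo2 and Robo1 lie left of it.

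Since mixed aggregates were built from 50% of each kind, their level was set beside the midpoint of the luminal and basal mean CPM. This is a description without a test, and it takes no account of unequal RNA per cell or unequal growth. The 10 basal markers stood in mixed aggregates at a median of 48.7% of the way from the luminal to the basal mean, from 0.844% for Oxtr, the oxytocin receptor gene, to 72.3% for Acta2, smooth muscle actin. Reln averaged 3.07 ± 3.31 CPM in mixed libraries against a midpoint of 26.2 CPM, which put it at 5.28% of the way to the basal mean. Robo2 averaged 0.827 ± 0.979 CPM against a midpoint of 3.77 CPM, or 8.47% of the way. For both genes all 3 mixed libraries were below the midpoint. Robo1 and Ntn4 were also below it in all 3 mixed libraries, but nearer, at 84.3% ± 8.01 and 75.1% ± 9.45 of the midpoint (SD, n = 3). Ntn1 was above it in every mixed library, at 187% ± 19.4 of the midpoint, with a mixed mean of 134 CPM against 71.6 CPM. Luminal markers shared this in part. Like Ntn1, Elf5 (168 CPM in mixed, 149 in luminal, 25.9 in basal), Prlr, Kit, Krt19 and Foxa1 had mixed means above both pure means. The mixed means of Krt8, Krt18, Cldn4, Muc1 and Cd14 lay between the pure means. Slit2 and Unc5c exceeded the midpoint in all 3 mixed libraries too, at 174% ± 67.9 and 323% ± 146 of it. Neo1 lay at 104% ± 7.99 of it.

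**Figure D3:**
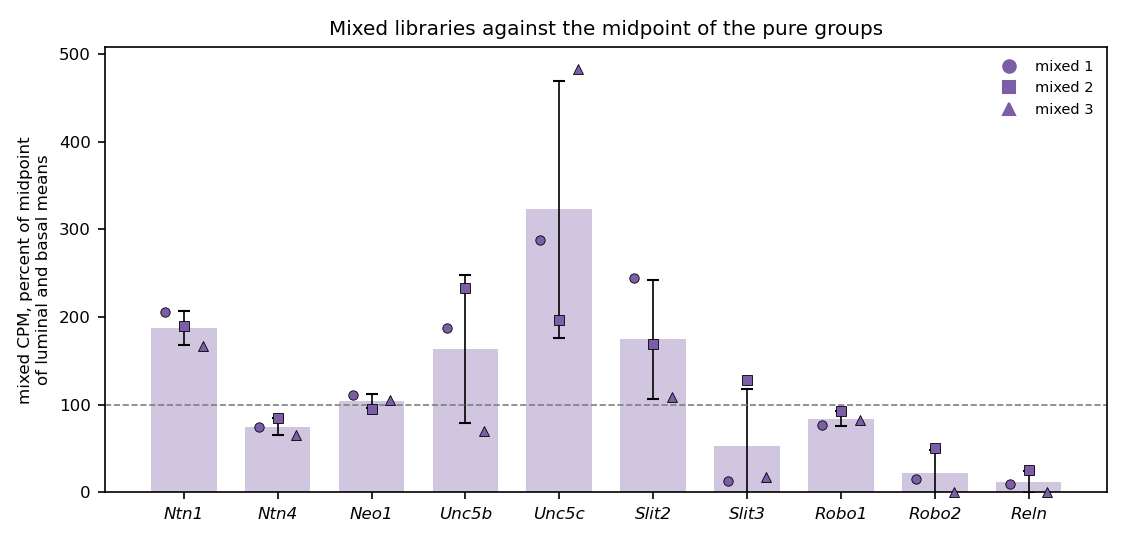
CPM of each mixed library as a percentage of the midpoint between the luminal and basal means (y axis, from 0), by gene. Points are libraries, bars are means, lines are SD, and the dashed line marks 100%. Reln reaches 25.1% at most, while Ntn1 lies between 167% and 205%.

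Levels can be compared between genes only per length of transcript. In CPM per kilobase of summed exon length, a scale that understates genes with long exons that are seldom used, Ntn4 was the highest of the 10 in all 3 kinds, at 24.4 ± 3.07 in mixed, 55.4 ± 20.3 in luminal and 9.61 ± 1.49 in basal aggregates. Ntn1 was next in mixed and luminal aggregates, at 21.4 ± 2.21 and 19.3 ± 3.86, and its mixed libraries overlapped those of Ntn4. In basal aggregates Neo1 took that place at 6.58 ± 0.627, followed by Ntn1 at 3.46 ± 0.228 and Unc5b at 3.44 ± 1.43, whose libraries overlapped. Reln came next in basal aggregates, at 2.19 ± 0.240. Both netrin ligands stood above the 3 netrin receptors in every mixed and luminal library on this scale. For the Slit system the receptor Robo1 exceeded Slit2 in basal aggregates, at 1.07 ± 0.134 against 0.567 ± 0.243, while in mixed aggregates they overlapped, at 0.574 ± 0.0545 and 0.588 ± 0.229.

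Of 14 other netrin ligands and receptors 10 were tested, and 2 rose and 2 fell in luminal against basal aggregates, where 12.8% of all tested genes rose and 14.4% fell. The median log2 difference was 0.14, and the medians of this and the following lists can be read against those of all tested genes given above. Unc5cl, a relative of the UNC5 receptors, rose by 2.32 ± 0.36 and Rgma, a membrane-anchored ligand of neogenin, by 1.44 ± 0.24. Mcam, a cell adhesion molecule also described as a netrin-1 receptor, fell to 28.9 CPM in luminal against 104 CPM in basal aggregates (-1.85 ± 0.27), and Flrt2, a ligand of UNC5 receptors, differed by -3.04 ± 0.99. In mixed against basal aggregates 2 were called, against 13.7% of all tested genes, and both rose, Unc5cl at 2.23 ± 0.36 and Ntng1, a membrane-bound netrin relative, at 1.35 ± 0.34. Ntng1 had 9.27, 12.2 and 12.8 CPM in mixed libraries, 4.91, 6.47 and 4.85 CPM in luminal libraries and 5.38, 3.31 and 4.71 CPM in basal libraries, so that all mixed libraries were above the others. The test of Ntng1 outside both pure kinds did not pass. Mixed against luminal aggregates gave 2 higher, Mcam (1.43 ± 0.27) and Ntng1 (1.08 ± 0.33), and 1 lower, Rgma (-0.69 ± 0.24). This count is near the 29.4% called among all tested genes, of which 15.2% were higher and 14.2% lower.

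Among 13 genes of netrin receptor signalling 4 were called in luminal against basal aggregates and 4 in mixed against basal aggregates, all of them lower. Of all tested genes 27.1% and 13.7% were called in these comparisons, with 14.4% and 7.33% called lower, so the first count is near the background. The medians of the 13 were -0.07 and 0.03. Fyn, a Src family kinase, stood at 14.7 CPM in mixed, 7.61 CPM in luminal and 35.3 CPM in basal aggregates, with log2 differences of -2.21 ± 0.25 for luminal and -1.26 ± 0.24 for mixed against basal. Src differed by -0.87 ± 0.19 and -0.80 ± 0.19, and Maged1, a UNC5 binding protein, by -0.76 ± 0.16 and -1.01 ± 0.16. In mixed against luminal aggregates Fyn (0.95 ± 0.24) and Trio, an exchange factor for Rac (0.70 ± 0.19), were the 2 called, both higher. Of all tested genes 29.4% were called in that comparison and 15.2% were higher, so the count of higher genes is near the background.

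Of 17 other genes of the Slit and Robo system 15 were tested, and 1 rose and 3 fell in luminal against basal aggregates (median -0.19), a count near the 27.1% called among all tested genes. Nck2, an adaptor that binds Robo, rose by 0.75 ± 0.19. Srgap2, a GTPase-activating protein that binds Robo receptors, differed by -1.18 ± 0.22, Sdc1, a heparan sulfate proteoglycan, by -0.82 ± 0.16 and the chemokine receptor gene Cxcr4 by -2.78 ± 0.65. Mixed against basal aggregates had 4 called, against 13.7% of all tested genes, all of them lower (median -0.57), among them Usp33 at -1.57 ± 0.38, Gpc1 at -0.89 ± 0.20 and Srgap2 at -0.79 ± 0.22. Usp33, an enzyme that removes ubiquitin and binds Robo1, had 7.04, 9.41 and 9.31 CPM in mixed libraries, 37.5, 21.1 and 51.3 CPM in luminal libraries and 37.4, 14.7 and 24.2 CPM in basal libraries. All mixed libraries were below all others, and basal 2 was the lowest of the pure ones. The test of Usp33 outside both pure kinds did not pass (adjusted p = 0.16). Against luminal aggregates Usp33 (-2.09 ± 0.38), Gpc1, a glypican (-0.95 ± 0.20), and Nck2 (-0.94 ± 0.19) were lower in mixed ones, and Cxcr4, at 3.43 CPM in mixed and 0.853 CPM in luminal aggregates, was the 1 gene of the list that was higher (adjusted p = 0.036). The list had 1 higher and 3 lower of 15 in that comparison, near the 29.4% called among all tested genes. Cxcr4, whose product Slit signalling can counter, is also a leukocyte gene. It was highest in basal 2, at 9.64 CPM, and the 6 leukocyte markers summed to 42.2 to 64.3 CPM in mixed, 22.1 to 51.5 CPM in luminal and 3.79 to 47.4 CPM in basal aggregates. The sums hide members that moved in opposite directions, and 3 of the 6 were tested. Cd68 made up most of the luminal sum and was lower in mixed than in luminal aggregates, at 5.67 against 32.0 CPM (-2.49 ± 0.40). Lyz2 and Cd74 were higher in mixed than in luminal aggregates, at 18.4 against 0.0613 CPM and at 29.8 against 0.758 CPM, and lower in luminal than in basal ones. In basal 2, Lyz2 had 15.4 CPM and Cd74 27.3 CPM, the highest of the basal libraries for both, as for Cxcr4. In basal 1 and 3, Lyz2 had 0.152 and 0.115 CPM and Cd74 had 1.88 and 0.632 CPM. Basal 2 shares its library code with the mixed libraries, and no luminal library has that code. The part of leukocyte RNA and of the library code in the Cxcr4 levels was not tested. Slit1 and Robo4 did not pass the filter on low counts, and Robo3 reached at most 1.09 CPM in any library and was not called.

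Both reelin receptor genes were lower in luminal and in mixed aggregates than in basal ones. Lrp8, the gene of the reelin receptor ApoER2, had 16.9, 21.2 and 31.2 CPM in mixed libraries, 7.77, 7.24 and 15.5 CPM in luminal libraries and 48.5, 44.6 and 51.6 CPM in basal libraries, and the kinds did not overlap. Its log2 differences were -2.25 ± 0.32 for luminal against basal (adjusted p = 0.00031), -1.06 ± 0.31 for mixed against basal (adjusted p = 0.043) and 1.18 ± 0.32 for mixed against luminal (adjusted p = 0.018). Vldlr, the other receptor gene, had 21.2, 31.6 and 27.2 CPM in mixed, 35.9, 35.1 and 42.8 CPM in luminal and 56.6, 64.1 and 52.4 CPM in basal libraries. It fell by 0.61 ± 0.19 in luminal (adjusted p = 0.037) and by 1.11 ± 0.20 in mixed against basal aggregates (adjusted p = 0.0040). Mixed against luminal, at -0.51 ± 0.19, was not called (adjusted p = 0.069). Dab1, the adaptor of the reelin receptors, was at 0 counts in all 3 mixed libraries and reached at most 0.297 CPM in any library, and it did not pass the filter on low counts.

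In all, 14 of 15 genes of reelin receptors and signalling were tested. Of these 1 rose and 4 fell in luminal against basal aggregates (median -0.24), 4 were called in mixed against basal aggregates, all lower (median -0.07), and 3 rose and 1 fell in mixed against luminal aggregates (median 0.06). The shares called among all tested genes were 27.1%, 13.7% and 29.4% in these comparisons, and the last count is near its background. The gene that rose in luminal aggregates was Pik3r1, a regulatory subunit of phosphoinositide 3-kinase, at 0.92 ± 0.20, which was lower in mixed than in luminal aggregates (-0.63 ± 0.20). Beside Lrp8 and Fyn, Rap1a, a small GTPase, was higher in mixed than in luminal aggregates (0.64 ± 0.18). The Src family genes Fyn and Src count here as well as in the netrin list. Crk, Crkl and Rapgef1, which act downstream of Dab1, were not called in any comparison.

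Of 6 proteases that cleave reelin or belong to families that do, 1 rose and 4 fell in luminal against basal aggregates (median -2.36), 3 were called in mixed against basal aggregates, all lower (median -1.30), and 3 were higher and 1 lower in mixed against luminal aggregates (median 1.09). Of all tested genes 12.8% rose and 14.4% fell in the comparison of luminal with basal, 7.33% fell in that of mixed with basal, and 15.2% were higher and 14.2% lower in that of mixed with luminal aggregates. Adamts4 stood at 5.89, 3.75 and 0.980 CPM in mixed libraries, 0.917, 0.297 and 1.12 CPM in luminal libraries and 23.7, 15.2 and 19.7 CPM in basal libraries, and differed by -4.64 ± 0.67 in luminal and by -2.46 ± 0.59 in mixed against basal aggregates. Adamts2 differed by -2.57 ± 0.41 and -2.10 ± 0.40, and Plat, tissue plasminogen activator, by -2.15 ± 0.41 and -2.35 ± 0.42 in the same comparisons. Adamts5 was lower in luminal aggregates (-2.74 ± 0.47) but not called in mixed ones against basal (-0.50 ± 0.43, adjusted p = 0.47). Furin, a proprotein convertase, rose in luminal against basal aggregates by 0.68 ± 0.19 and was lower in mixed than in luminal ones (-0.84 ± 0.19). Higher in mixed than in luminal aggregates were Adamts5 (2.24 ± 0.46), Adamts4 (2.18 ± 0.63) and Adamts3 (1.70 ± 0.55).

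**Figure D4:**
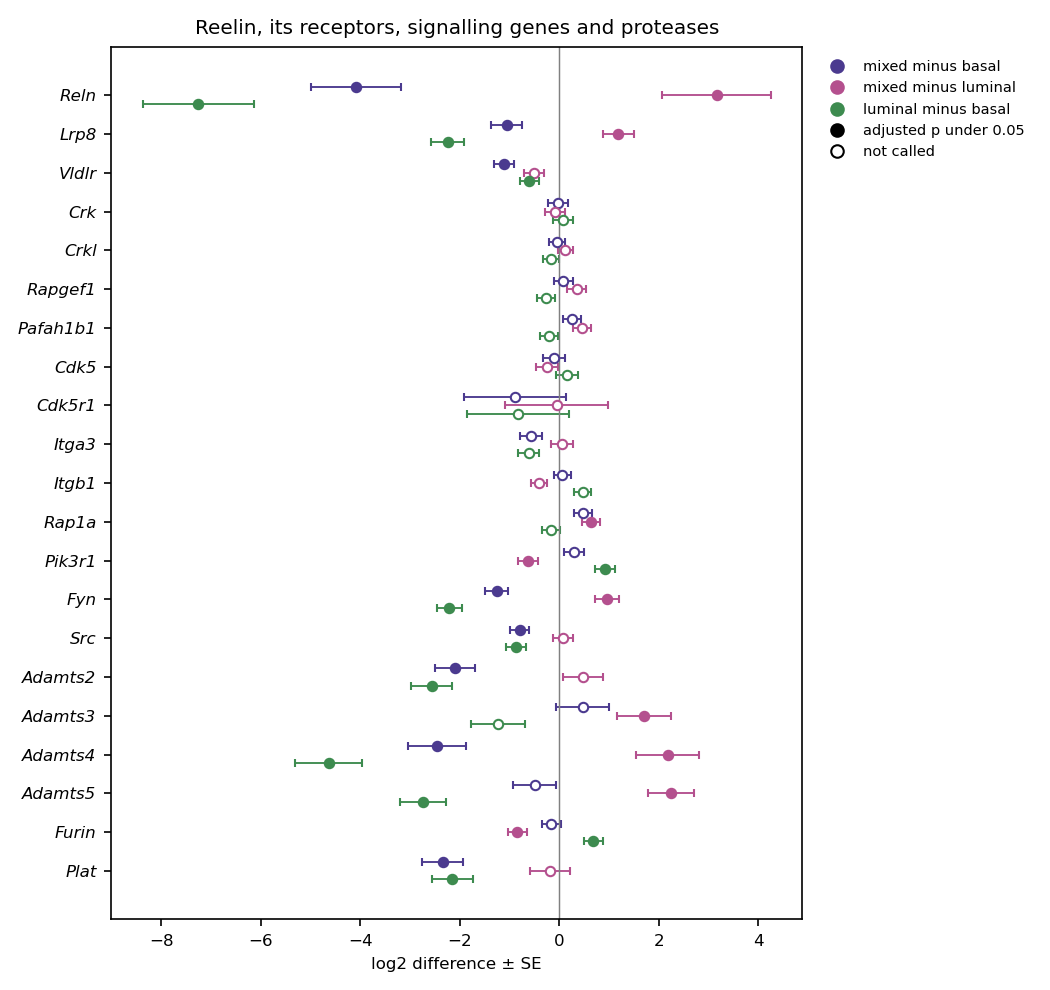
Log2 differences with SE for mixed minus basal, mixed minus luminal and luminal minus basal aggregates (x axis) for Reln and the tested genes of the reelin signalling and protease lists. Filled points passed an adjusted p under 0.05. Against basal aggregates Lrp8, Vldlr, Fyn, Src, Adamts2, Adamts4 and Plat lie left of 0 in both comparisons.

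The genes whose profile over the 9 libraries was most like that of each member are given as a description, since the libraries share groups, codes and depth. Ntn1 was followed most closely by Elf5 (Pearson r = 0.994), the transcription factor of alveolar luminal progenitors, then Cd200 and Fosl2 (both 0.989). Elf5 averaged 168 CPM in mixed, 149 CPM in luminal and 25.9 CPM in basal aggregates. The nearest profiles to Ntn4 were those of Rhou (0.995), Tlr2 (0.988) and Galc (0.986). For Reln they were Large2 (0.986), Tspan2 (0.981) and Armcx1 (0.974), and for Robo2 they were Has2 (0.990), a hyaluronan synthase, Armcx1 (0.990) and Reln itself (0.983). Robo1 was most like Spag5 (0.977), Gtse1 (0.975) and Arhgef39 (0.972), of which Spag5 and Gtse1 act in mitosis. Beside that, the 4 cycling markers summed to 664 to 819 CPM in mixed, 21.4 to 28.8 CPM in luminal and 761 to 1101 CPM in basal aggregates. Whether cycling contributed to the Robo1 difference was not tested. Slit2 was nearest to Grb14 (0.968), Fgb (0.956) and Gabrp (0.949), Unc5b to Ro60 (0.962), Sdr39u1 (0.955) and Tmeff2 (0.953), and Neo1 to Prkci (0.964), Exoc8 (0.946) and Zfp84 (0.923). Candidates were the tested genes that averaged 10 CPM or more over the 9 libraries, 10002 in number (10003 for Robo2), and the members under 5 CPM in every kind, Unc5c and Slit3, were not matched.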

How the data were processed

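RNA of 9 aggregate samples was extracted with a small-input kit and made into stranded mRNA libraries, per the labels' protocols. The deposited table holds raw counts of read pairs per gene name, and the summed exon length in bases, made by the authors with featureCounts 2.0.1 over exons and without strand, per the file headers. Trim Galore, Subread and build mm39 are named in the submitters' processing notes. Neither alignment settings nor the annotation release were given in the sources used here. Counting without strand lets an overlapping antisense gene take or block reads, and among the 10 members the shared share of exon bases was at most 1.04% (Reln).

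Titles number the libraries. The sample descriptions give other numbers to some basal and luminal libraries, and pairing by those numbers was not examined. Tests used edgeR 4.0.16 under R 4.3.3 (filterByExpr, TMM scaling, robust quasi-likelihood test, two-sided) in one fit of all 9 libraries with 3 groups and 6 residual degrees of freedom, with Benjamini-Hochberg adjustment over 18051 genes and a threshold of 0.05. CPM use the TMM-scaled size of the tested genes and no pseudocount. SE is the log2 difference divided by the square root of the F statistic. Mixed levels outside both pure groups needed 1 sign in both contrasts, and the larger p was adjusted. Profiles were compared as log2 CPM after adding a prior count of 2. No pair of libraries was a duplicate. The edgeR test was checked on simulated counts.

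The members and lists were chosen with earlier results of these data known. Named genes of a list are up to 3 called ones in each direction with the largest log2 difference and at least 5 CPM in a group compared. Outside that rule Flrt2, Dab1, Crk, Crkl, Rapgef1, Cxcr4 in mixed against luminal aggregates, Slit1, Robo3, Robo4, Col1a2, Cd68, Lyz2, Cd74, Acta2 and Oxtr were named after their values were seen, as were further values of genes that the rule names. Krt5, Krt14, Col1a1, Pdgfra, Dcn and the luminal markers were named in that way too. Alternatives were other scalings and filters, DESeq2 1.42.0, limma-voom (limma 3.58.1), fits of 2 groups, the replicate block, the library code as a term and libraries left out. They were run for the 10 members and for counts over all genes, not for single genes of the other lists.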

Additional observations from a re-analysis of the deposited data

How the results depend on the processing

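Of the 568 alternative values of the differences of the 10 genes, 510 kept direction and side of the threshold, 22 lost a call, 18 gained one and 18 turned sign. All 180 tests of a mixed level outside both pure kinds kept their side. The cause of the changes was not tested, except that leaving out libraries leaves fewer to estimate the spread. Sign turned only for differences that were not called. With total library size scaling Neo1 (-0.031) and Slit2 (-0.15) turned in mixed against basal aggregates. In mixed against luminal aggregates Neo1 turned with limma-voom (0.026), in a fit of the 2 groups compared (0.013) and with the library code as a term (0.15), as did Ntn1 with the code (-0.19), and in mixed against basal aggregates Unc5b turned with the code (-0.26). Without basal 2 and mixed 3 together Slit2 in mixed against basal aggregates was -0.03. With 1 library left out, or basal 2 and mixed 3 together, luminal against basal values of Neo1 ran between -0.10 and 0.35. For mixed against basal aggregates those of Unc5b ran between -0.060 and 1.05 and those of Slit2 between -0.28 and 0.29, with turns without mixed 2 for Unc5b and without basal 2 or mixed 1 for Slit2. For mixed against luminal aggregates those of Neo1 ran between -0.23 and 0.22 (turned without luminal 3 at 0.22 and without mixed 2 at 0.03) and those of Slit3 between -1.61 and 1.28 (turned without luminal 2 at -0.45 and without mixed 2).

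The number of all tested genes called in mixed against basal aggregates, 2477, was 4004 with DESeq2, 3903 without a filter on low counts, 853 with the code as a term, 5129 without basal 2 and mixed 3, and between 963 and 5120 with 1 library left out. With the code 2507 genes were called in luminal against basal aggregates, against 4899, and 491 in mixed against luminal ones, against 5309, where leaving out 1 library gave 2967 to 6774. The 16 mixed levels outside both pure kinds became 622 with DESeq2, 33 with limma-voom, 890 without the filter, 0 with the code, 886 without basal 2 and mixed 3, and 1 to 1251 with 1 library left out. Of the 10 genes, 5 were called in mixed against basal aggregates with limma-voom and 1 in mixed against luminal ones with the code.

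Libraries with the same title number correlated at -0.17 to 0.20 in their deviations from the group means, over 9 pairs. Of the 9 libraries 4 correlated best with their own number, so the title numbers were not taken to pair the samples. With the replicate number as a block 4548 genes were called in luminal against basal, 2127 in mixed against basal and 5006 in mixed against luminal aggregates, and 9 outside both pure kinds. Neo1 (0.0076) and Slit3 (-0.027) turned sign in mixed against luminal aggregates, the Reln call there ended (2.81, adjusted p = 0.11), and Unc5b passed (1.24, adjusted p = 0.023). At these depths Slit3, Unc5c and, outside basal aggregates, Robo2 and Reln rest on few counts.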
